A study of Rattus norvegicus with 20 samples.

Results

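Genes of the Wnt signalling pathway were followed across retroperitoneal tissue of lean, obese and drug-treated rats. The set was defined by gene symbol alone and holds the Wnt ligands, the Frizzled receptors (Fzd), the secreted Frizzled-related proteins (Sfrp) and the Dickkopf inhibitors (Dkk), together with Wif1, Frzb, Lrp5, Rspo1, Rspo3 and Axin2. It comprised 37 of the 14557 genes measured: 16 ligands, 9 receptors, 2 R-spondins, 9 secreted inhibitors and 1 target gene. Lrp6, Rspo2, Tcf7l2 and Lef1 were also named in the definition, but they were not among the 14557 genes and were not analysed here. A family member without a feature of its own symbol alone is not in the set. Each member was represented by a single array feature.

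The animals were male Zucker diabetic fatty (ZDF) rats, whose obese animals become diabetic, and 20 whole-transcript arrays were available, 5 from each of 4 groups. Lean control rats ate standard chow, obese rats received a stock diet for 6 weeks, and the remaining groups received rosiglitazone, an agonist of the nuclear receptor PPARG, or resveratrol, a plant polyphenol. The labels state no drug dose, no age and no diet for the treated rats, and do not say that those rats were obese. Obesity and diet cannot be told apart in the comparison of obese with lean rats. Arrays within a group are labelled as biological replicates. Unless stated otherwise, each p-value weighs group differences against the spread of arrays within groups, pooled over the 4 groups.

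Wnt ligands are secreted proteins that bind a Frizzled receptor together with the coreceptor LRP5 or LRP6. In the canonical branch this stabilises beta-catenin, which acts with TCF/LEF factors on target genes such as Axin2, whereas other ligands signal without beta-catenin. R-spondins keep Frizzled receptors at the cell surface, Sfrp proteins, Frzb and Wif1 bind Wnt ligands outside the cell, and Dkk1, Dkk2 and Dkk4 act on the LRP coreceptors. In mice and in cultured preadipocytes, canonical Wnt signalling holds back the formation of fat cells, a process that PPARG drives.

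Levels are RMA log2 values, and the median gene lay at 3.02. A group mean under that level is called dim here, and no fold is given for it. Whether a dim gene was detected above background was not tested. The tissue label was set against adipocyte markers: Adipoq, the adipocyte hormone adiponectin, lay at 10.81 to 11.18 on 19 of the arrays and at 9.92 on resveratrol array 1. Single arrays stood apart. On resveratrol array 1 the mean of 4 skeletal muscle markers was 8.98 (2.67 to 2.94 on the other resveratrol arrays) and Lep, the hormone leptin, was 5.89 (10.28 to 10.50). On obese array 2 the mean of 3 urothelial markers was 6.31 (2.62 to 2.80 on the other obese arrays), and on rosiglitazone array 2 Ucp1, the uncoupling protein of brown adipocytes, stood at 10.52 (4.73 to 5.83). Lean control arrays 1 and 3 had Lep at 10.23 and 10.25, above the 7.88 to 8.78 of lean control arrays 2, 4 and 5. With 5 arrays a group, SEs of log2 differences had a median of 0.17 over all genes. In tissue pieces of mixed cells, fewer cells of a type and less RNA per cell cannot be told apart.

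In rosiglitazone tissue 2 of the 37 members rose against obese tissue, the inhibitor Sfrp1 and the receptor Fzd2, and none fell. These 2 members are 5.41% of the set, and 9.86% of all genes passed in this comparison, 7.19% higher and 2.67% lower, so the members' share was not above the background. Of the called genes 72.9% were higher in rosiglitazone tissue, and 85.8% with each array centred on its median. None of the 37 passed in resveratrol against obese tissue or in obese against lean tissue, where 0.0% and 0.179% of all genes passed. Against resveratrol tissue, Fzd2 and the ligand Wnt5b were higher in rosiglitazone tissue. Set against lean control tissue, in a comparison added after the values were seen, rosiglitazone tissue had more Sfrp1, Fzd2 and Dkk3 and less Frzb and Lrp5.

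**Figure D1:**
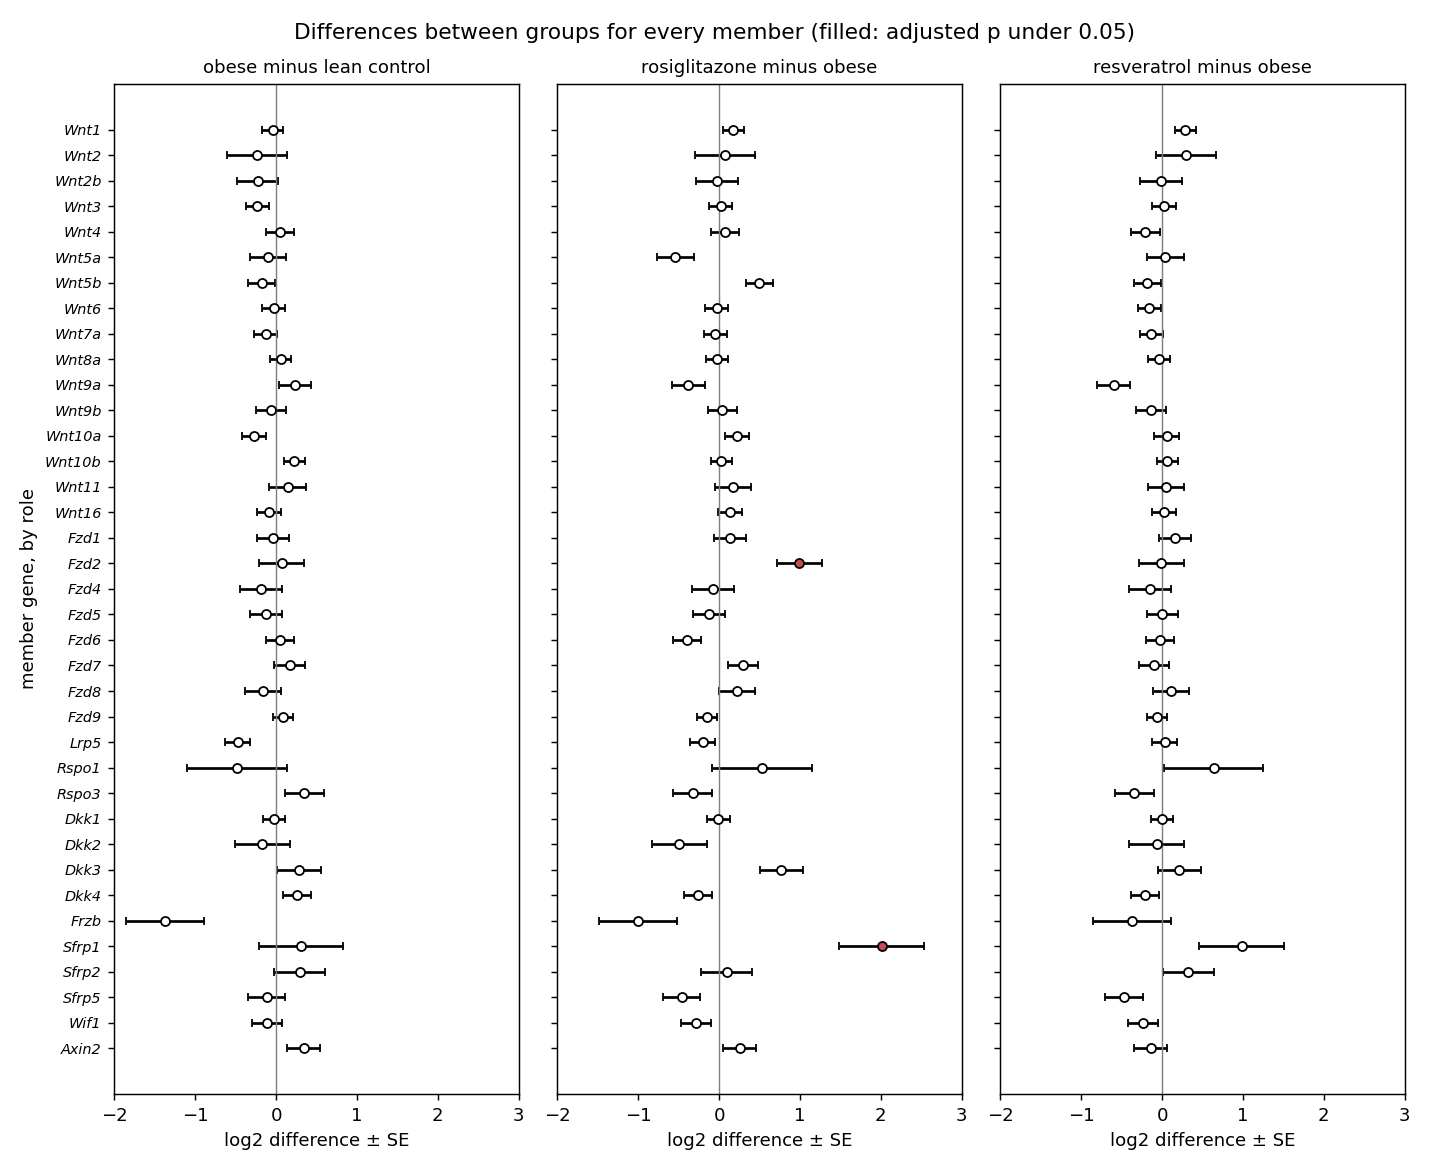
Log2 differences (horizontal axis, ± SE) of all 37 members (vertical axis, by role) for obese minus lean control, rosiglitazone minus obese and resveratrol minus obese, 5 arrays a group; filled points have a limma adjusted p under 0.05. Fzd2 and Sfrp1 in the middle panel are the 2 filled points, and Frzb has the lowest value in the left and middle panels.

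All 16 Wnt ligands in the set had a mean over the 20 arrays under the median gene. Wnt10b, which restrains fat cell formation in mice, had group means of 1.51 ± 0.15, 1.74 ± 0.14, 1.76 ± 0.25 and 1.80 ± 0.15 (SD, n = 5) in lean control, obese, rosiglitazone and resveratrol tissue, in that order, and passed no comparison. Wnt5a and Wnt5b are closely related ligands known mainly for signalling without beta-catenin, and their differences between rosiglitazone and obese tissue had opposite signs. For Wnt5b the lean control arrays 1 to 5 read 2.14, 2.12, 2.57, 2.30 and 2.39. It stood at 2.11, 1.82, 1.78, 2.59 and 2.31 on obese arrays, at 2.44, 3.14, 2.46, 2.43 and 2.63 on rosiglitazone arrays and at 2.17, 1.92, 2.04, 1.83 and 1.75 on resveratrol arrays. Every rosiglitazone array was above every resveratrol array, whereas rosiglitazone overlapped with obese and with lean control arrays.

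All group means of Wnt5b were dim, from 1.94 in resveratrol to 2.62 in rosiglitazone tissue. Between the drug groups, Wnt5b was higher with rosiglitazone by 0.68 on the log2 scale (SE 0.16, limma adjusted p = 0.0137). That comparison called 6.9% of all genes, with 4.09% of all genes higher under rosiglitazone, and 5.41% of the members, Fzd2 and Wnt5b. Non-overlapping groups with the rosiglitazone arrays higher were found for 4.43% of all genes and for Wnt5b alone among the members. Against obese tissue Wnt5b differed by 0.50 (SE 0.16, limma adjusted p = 0.0590), which passed when each array was centred on its median (0.59, adjusted p = 0.0212), when the values were quantile normalised again (0.58, adjusted p = 0.0244) and without obese array 4 (0.61, adjusted p = 0.0226). It was smaller without rosiglitazone array 2 (0.37, adjusted p = 0.163) and without resveratrol array 1, obese array 2 and rosiglitazone array 2 together (0.29, adjusted p = 0.289).

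Wnt5a lay at 3.08, 2.64, 3.45, 3.24 and 3.67 on lean control arrays, at 2.43, 3.79, 3.0, 3.14 and 3.21 on obese arrays, at 2.28, 2.89, 2.09, 2.86 and 2.75 on rosiglitazone arrays and at 3.27, 3.32, 3.24, 3.24 and 2.69 on resveratrol arrays. The rosiglitazone arrays were among the lower ones but overlapped with each other group. Its differences did not pass: -0.54 (SE 0.23, limma adjusted p = 0.145) against obese and -0.58 (SE 0.23, adjusted p = 0.140) against resveratrol. The first passed without obese array 1 (-0.71, adjusted p = 0.0418) and was -0.37 (adjusted p = 0.348) without obese array 2. Against lean control it was -0.64 (SE 0.23, adjusted p = 0.110), and -0.72 (adjusted p = 0.0457) without the 3 arrays that stood apart. Wnt9a, another dim ligand, differed by -0.60 between resveratrol and obese tissue (SE 0.20, adjusted p = 0.410), and Wnt1 by 0.29 (SE 0.13, adjusted p = 0.546). Wnt2 was at 4.40 on resveratrol array 1, the array with skeletal muscle markers, and at 2.51 or less on every other array.

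Of the 9 receptors in the set, 5 had a mean at or above the median gene: Fzd4, Fzd5, Fzd6, Fzd7 and Lrp5. Fzd4, known as the receptor of norrin in retinal vessels, lay between 7.54 and 8.51 on 19 arrays and at 6.66 on resveratrol array 1. Fzd2 is a receptor for Wnt5a among other ligands. The lean control arrays read 2.79, 2.23, 2.75, 2.63 and 2.10. It stood at 2.43, 3.58, 2.66, 1.86 and 2.32 on obese arrays, at 3.06, 2.83, 4.16, 3.97 and 3.78 on rosiglitazone arrays and at 3.09, 2.40, 2.49, 2.28 and 2.54 on resveratrol arrays. The rosiglitazone arrays were all above the lean control arrays, and rosiglitazone arrays 3, 4 and 5 were above every array of the other groups, while obese array 2, with the urothelial markers, and resveratrol array 1 were above rosiglitazone arrays 1 and 2.

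Fzd2 was higher in rosiglitazone than in obese tissue by 0.99 (SE 0.28, limma adjusted p = 0.0269, above the obese mean in 5 of 5 arrays) and than in resveratrol tissue by 1.002 (SE 0.28, adjusted p = 0.0321). Resveratrol and obese tissue differed in Fzd2 by -0.01, with a 95% interval of -0.59 to 0.57. The first difference did not pass without rosiglitazone array 3 (0.84, adjusted p = 0.0747), 4 (0.89, adjusted p = 0.0635) or 5 (0.94, adjusted p = 0.0596), nor without obese array 4 (0.81, adjusted p = 0.0795) or 5 (0.93, adjusted p = 0.0670). Fitting the compared groups alone gave an adjusted p = 0.0762, and without resveratrol array 1, obese array 2 and rosiglitazone array 2 the difference was 1.43 (adjusted p = 0.000227). The difference from resveratrol did not pass without rosiglitazone array 3 (0.85, adjusted p = 0.0808), 4 (0.90, adjusted p = 0.0821) or 5 (0.95, adjusted p = 0.0664), nor without resveratrol array 2 (0.96, adjusted p = 0.0710), 3 (0.99, adjusted p = 0.0677), 4 (0.93, adjusted p = 0.0745) or 5 (adjusted p = 0.0608).

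Lrp5, the coreceptor, had its highest group mean in lean tissue, at 6.19 ± 0.24 (SD, n = 5). The lean control arrays read 6.48, 6.33, 6.05, 6.22 and 5.87, the obese arrays 5.68, 5.21, 6.10, 5.84 and 5.76, the rosiglitazone arrays 5.67, 5.31, 5.33, 5.63 and 5.67 and the resveratrol arrays 5.60, 5.67, 5.72, 6.02 and 5.76. Every rosiglitazone array was below every lean control array, whereas obese and resveratrol arrays overlapped with the lean ones. Lrp5 was lower in rosiglitazone than in lean control tissue by 0.67 on the log2 scale, or 1.59-fold (SE 0.15, limma adjusted p = 0.0109), and this held with each single array left out. Between obese and lean control it differed by -0.47 (SE 0.15, adjusted p = 0.194), and between resveratrol and lean control by -0.44 (SE 0.15, adjusted p = 0.203).

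Fzd6 and Fzd7 passed no comparison. Fzd6, a receptor known for planar cell polarity, differed by -0.40 between rosiglitazone and obese tissue (SE 0.17, adjusted p = 0.162), and Fzd7 by 0.39 between rosiglitazone and resveratrol tissue (SE 0.19, adjusted p = 0.256). Group means of Fzd6 were 4.66 ± 0.23, 4.70 ± 0.29, 4.31 ± 0.29 and 4.68 ± 0.29 (SD, n = 5) in lean control, obese, rosiglitazone and resveratrol tissue. Those of Fzd7 were 3.62 ± 0.21, 3.79 ± 0.42, 4.08 ± 0.28 and 3.69 ± 0.26 (SD, n = 5).

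**Figure D2:**
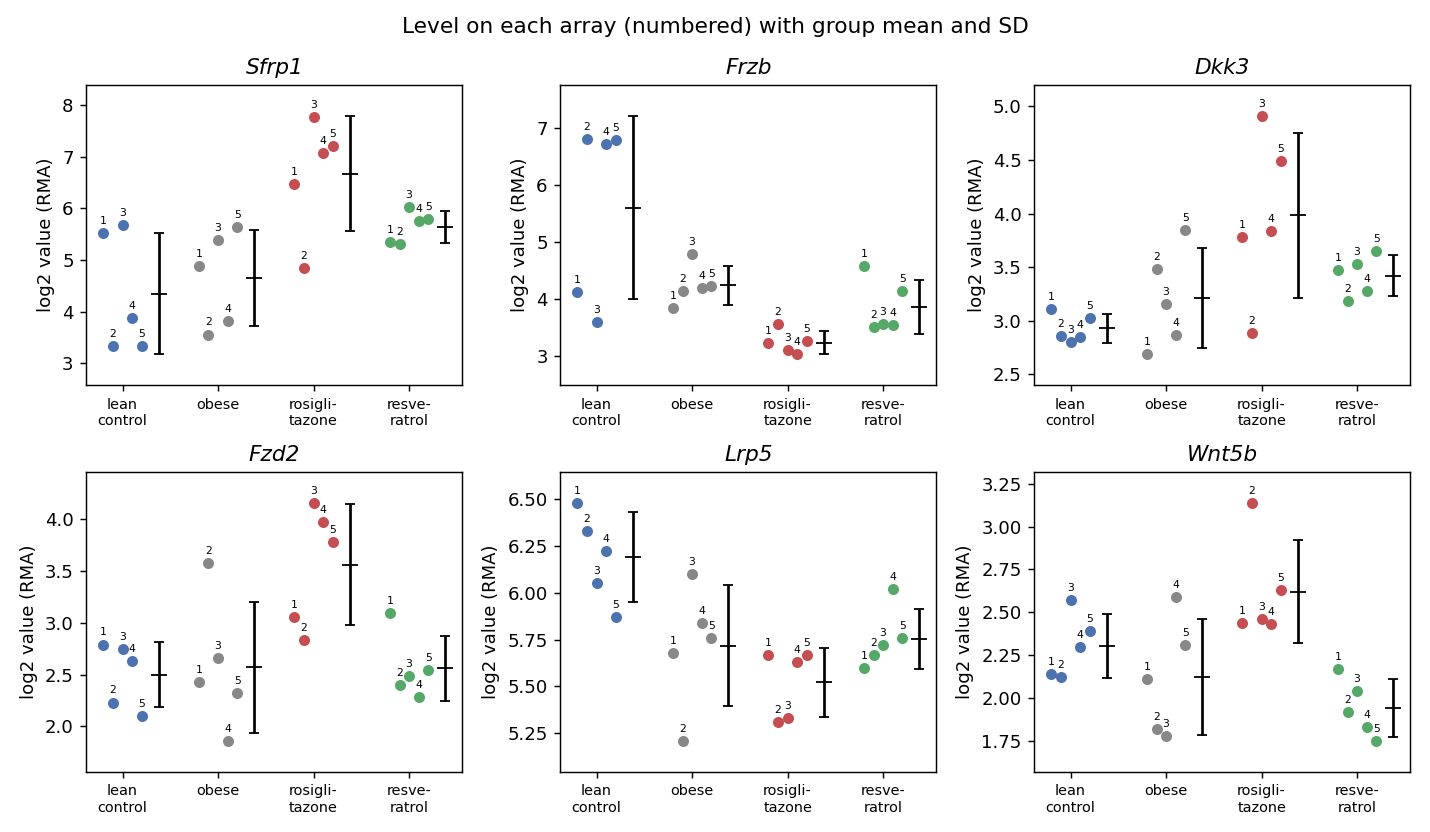
RMA log2 values (vertical axis) of the 6 members that passed in at least 1 comparison, on each of the 20 arrays (points numbered within their group on the horizontal axis), with the group mean and SD as bars (n = 5). Sfrp1 is highest on rosiglitazone arrays 3, 4 and 5, and Frzb separates lean control arrays 2, 4 and 5 from all others.

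Sfrp1 is a secreted Frizzled-related protein that binds Wnt ligands. Its level was 5.52, 3.33, 5.68, 3.88 and 3.33 on lean control arrays, 4.88, 3.56, 5.39, 3.82 and 5.63 on obese arrays, 6.47, 4.85, 7.76, 7.07 and 7.20 on rosiglitazone arrays and 5.34, 5.30, 6.03, 5.75 and 5.79 on resveratrol arrays. On rosiglitazone arrays 1, 3, 4 and 5 it was above every array of the other groups, and array 2, which carried the brown adipocyte signal, lay within the range of obese arrays. Lean control and obese arrays were each spread over about the same range, and the resveratrol arrays lay close together, in or above its upper part.

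Sfrp1 rose by 2.01 on the log2 scale in rosiglitazone against obese tissue, or 4.03-fold (SE 0.52, limma adjusted p = 0.0170, 95% interval 0.93 to 3.10, above the obese mean in 5 of 5 arrays). Without rosiglitazone array 3 the difference was 1.74 (adjusted p = 0.0502) and without obese array 2 it was also 1.74 (adjusted p = 0.0506), and over all alternatives the adjusted p ranged from 0.0025 to 0.0506. Resveratrol and obese tissue differed by 0.99 (SE 0.52, adjusted p = 0.595), with a 95% interval of -0.10 to 2.07, and rosiglitazone and resveratrol tissue by 1.03 (SE 0.52, adjusted p = 0.292), so the drug groups were not separated for this gene. Against lean control tissue the rosiglitazone difference was 2.32, or 4.99-fold (SE 0.52, adjusted p = 0.00996), past the threshold with each single array left out.

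Dkk3, a divergent Dickkopf protein whose action on the LRP coreceptors is less clear than that of its relatives, had values of 3.11, 2.86, 2.80, 2.85 and 3.03 on lean control arrays, 2.69, 3.48, 3.16, 2.87 and 3.85 on obese arrays, 3.78, 2.89, 4.91, 3.84 and 4.49 on rosiglitazone arrays and 3.47, 3.18, 3.53, 3.28 and 3.65 on resveratrol arrays. Rosiglitazone arrays 3 and 5 were above all arrays of the other groups and array 2 was within the lean control range. The resveratrol arrays were all above the lean control arrays, a non-overlap in that direction found for 0.907% of all genes. Yet the difference between these groups, 0.49 (SE 0.27, limma adjusted p = 0.431), did not pass. Dkk3 was higher in rosiglitazone than in lean control tissue by 1.05 (SE 0.27, limma adjusted p = 0.0218), which did not pass with those groups fitted alone (adjusted p = 0.0647) or without lean control array 2 (1.04, adjusted p = 0.0518), lean control array 4 (1.03, adjusted p = 0.0548), rosiglitazone array 3 (0.82, adjusted p = 0.0617) or rosiglitazone array 5 (0.93, adjusted p = 0.0644). Against obese tissue it differed by 0.77 (SE 0.27, adjusted p = 0.0736), and by 1.04 (adjusted p = 0.00595) without rosiglitazone array 2, 0.93 (adjusted p = 0.0429) without obese array 5 and 0.86 (adjusted p = 0.0435) with each array centred.

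Within the rosiglitazone group, markers of mesothelium, the lining of the body cavity, were high on the arrays with the most Sfrp1, Fzd2 and Dkk3. So were smooth muscle markers. Fibroblast and progenitor markers and macrophage markers were also highest on rosiglitazone arrays 3 and 5. The macrophage list read 5.40, 4.26, 5.61, 4.81 and 5.62 on rosiglitazone arrays 1 to 5. The mean of 6 mesothelial markers was 2.62, 2.75, 4.55, 3.81 and 4.53 on rosiglitazone arrays 1 to 5. It ranged from 2.04 to 4.71 in lean control, from 2.44 to 5.33 in obese and from 3.01 to 4.39 in resveratrol tissue, and none of the 6 markers passed in rosiglitazone against obese tissue. The mean of 3 smooth muscle markers was 4.31, 3.59, 5.15, 4.62 and 5.01 on rosiglitazone arrays 1 to 5. Its range was 4.21 to 4.99 in lean control, 4.04 to 7.40 in obese and 3.95 to 6.13 in resveratrol tissue. None of the 3 passed in rosiglitazone against obese tissue. The mean of 7 fibroblast and progenitor markers was 6.91, 5.58, 7.38, 6.92 and 7.39 on rosiglitazone arrays 1 to 5. It ranged from 6.23 to 7.36 on obese and from 6.99 to 8.09 on resveratrol arrays. None of the 7 was called against obese tissue, and Cd34 and Dcn were lower against resveratrol tissue. The brown adipocyte list was at 4.98 to 7.08 in rosiglitazone and at 3.24 to 3.80 in obese tissue, with 4 of 7 genes higher. Endothelial markers had a mean of 5.02 to 5.35 in rosiglitazone and of 5.48 to 6.21 in obese tissue, with 1 of 5 higher and 3 lower. Macrophage markers, at 4.26 to 5.62 in rosiglitazone, 4.81 to 6.34 in obese and 6.19 to 6.73 in resveratrol tissue, had 0 of 6 called against obese and 2 lower against resveratrol tissue. The part of these cell types in the Wnt pathway differences was not tested.

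Frzb, a secreted Frizzled-related protein also called Sfrp3, varied widely among the lean control arrays, at 4.11, 6.81, 3.59, 6.71 and 6.79. The obese arrays read 3.84, 4.13, 4.79, 4.18 and 4.22, the rosiglitazone arrays 3.22, 3.55, 3.09, 3.03 and 3.25 and the resveratrol arrays 4.57, 3.50, 3.56, 3.53 and 4.13. Lean control arrays 2, 4 and 5 were far above all other arrays, and lean control arrays 1 and 3, the ones with high Lep, lay within the range of the obese and resveratrol arrays combined. Sfrp1 showed the reverse split: lean control arrays 1 and 3 read 5.52 and 5.68, and the other 3 lean control arrays 3.33 to 3.88. Macrophage markers divided the same lean arrays, with a mean of 6.42 and 5.70 for 6 genes on arrays 1 and 3 and 4.18 to 4.64 on arrays 2, 4 and 5. So did the fibroblast and progenitor list (7.23 and 7.10 against 6.58 to 6.84). The adipocyte list, which includes Lep, did too (10.54 and 10.51 against 10.10 to 10.32). Skeletal muscle markers were lower on arrays 1 and 3 (2.98 and 2.63 against 3.02 to 3.08), and the remaining lists did not divide these arrays. The part of these cell types in the result was not tested. The files do not settle whether arrays 1 and 3 come from animals like the other lean controls, and every difference from lean control given here includes both.

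Over the 4 groups Frzb differed (limma moderated F, adjusted p = 0.0133), past the threshold with each single array left out. Rosiglitazone tissue was lower in Frzb than lean control tissue by 2.37 on the log2 scale, or 5.17-fold (SE 0.48, limma adjusted p = 0.00458), and every rosiglitazone array was below every lean control array. Rosiglitazone arrays were also all below the obese arrays, a non-overlap in that direction found for 2.19% of all genes, yet the difference of -1.001 (SE 0.48, adjusted p = 0.210) did not pass. With those groups fitted alone, which leaves out the wide spread of the lean control arrays, the same difference had an adjusted p = 0.00455.

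Between obese and lean control tissue Frzb differed by -1.37 (SE 0.48, limma adjusted p = 0.217), and without lean control array 3 by -1.87 (adjusted p = 0.0390). Between resveratrol and lean control tissue the difference was -1.74 (SE 0.48, adjusted p = 0.123). It was -2.12 (adjusted p = 0.0274) without lean control array 1, -2.24 (adjusted p = 0.0220) without lean control array 3 and -2.02 (adjusted p = 0.0175) with array weights.

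The promoter of Frzb is shown because this gene had the largest drop from lean control to rosiglitazone tissue among the members. Promoter sequences, 250 bases before to 50 after the start of the gene, were found for 28 of the 37 members in RefSeq, build GRCr8. The Frzb promoter, on the minus strand at chr3:85772047-85772346, is printed 5′ to 3′, with the nuclear receptor core motif AGGTCA in capitals, its first base 42 bases before the start.
Frzb: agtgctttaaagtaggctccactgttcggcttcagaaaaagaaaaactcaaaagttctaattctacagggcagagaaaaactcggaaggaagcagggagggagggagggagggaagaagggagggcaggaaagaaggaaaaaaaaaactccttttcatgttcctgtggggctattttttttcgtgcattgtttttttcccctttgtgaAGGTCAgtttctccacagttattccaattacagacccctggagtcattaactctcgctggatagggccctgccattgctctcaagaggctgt
Searched on both strands (AGGTCA or TGACCT), this motif was present in 3 of the 28 member promoters, those of Frzb, Wnt2 and Wnt16, and in 16.2% of 33469 rat promoters of the same length. A match in letters is a description of the sequence, and binding was not measured.

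The remaining secreted inhibitors passed no comparison. Sfrp2, a relative of Sfrp1 abundant in fibroblasts, read 6.57, 5.30, 7.60, 5.65 and 5.74 in lean control tissue, and lay between 6.05 and 7.29 on the arrays of the other 3 groups. As with Sfrp1, lean control arrays 1 and 3 were above lean control arrays 2, 4 and 5. Dkk2, a ligand of the LRP coreceptors, lay at 2.21 on resveratrol array 1 and at 2.05 on rosiglitazone array 2, and between 3.38 and 4.45 on the other 18 arrays. Both of these arrays stood apart by markers of other cell types. Sfrp5, which is enriched in mouse white fat, had dim group means of 2.68 ± 0.56, 2.57 ± 0.38, 2.10 ± 0.33 and 2.10 ± 0.26 (SD, n = 5) in lean control, obese, rosiglitazone and resveratrol tissue. Wif1, Dkk1 and Dkk4 were dim in every group.

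**Figure D3:**
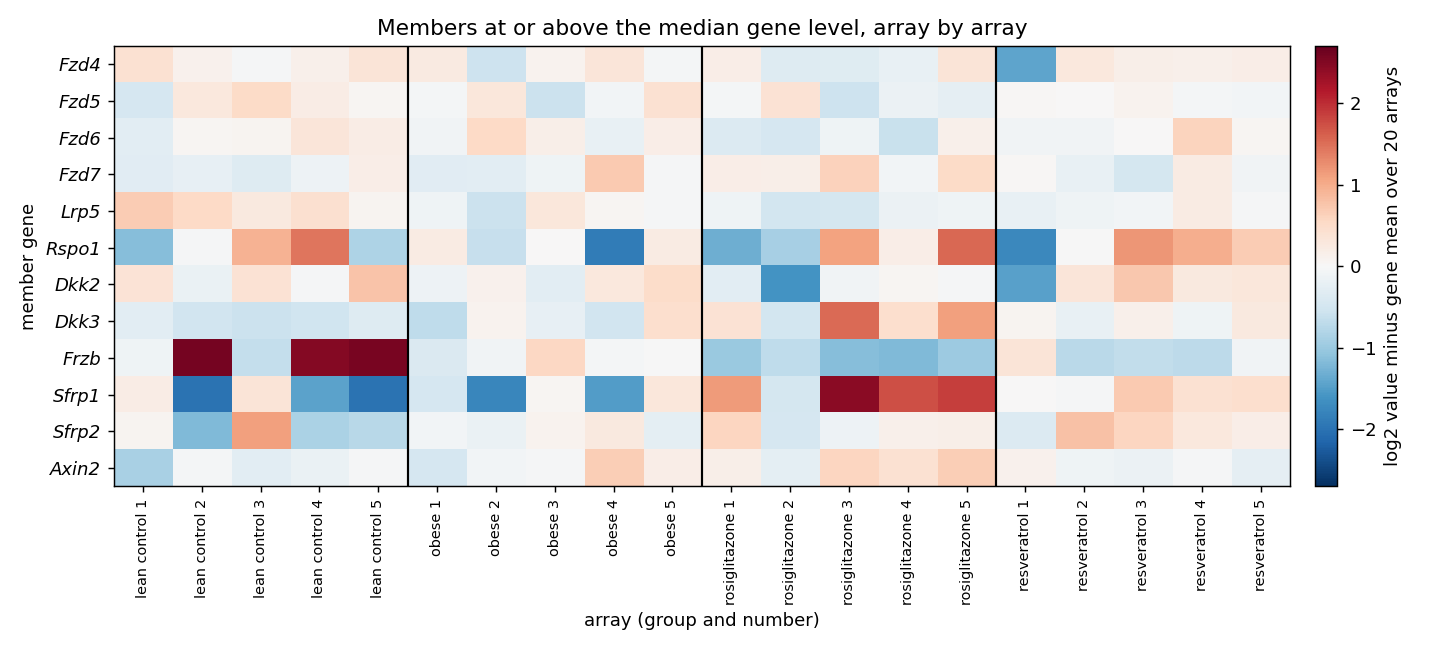
Deviation of each member's log2 value from its mean over the 20 arrays (colour), for the 12 members at or above the median gene (vertical axis) on every array (horizontal axis, by group). Frzb is high and Sfrp1 low on lean control arrays 2, 4 and 5, and Sfrp1 is high on 4 of the 5 rosiglitazone arrays.

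Rspo1, an R-spondin, showed wide spread within every group and passed no comparison. It was 3.90, 5.03, 6.00, 6.50 and 4.22 on lean control arrays, 5.27, 4.44, 5.07, 3.18 and 5.27 on obese arrays, 3.75, 4.16, 6.14, 5.23 and 6.60 on rosiglitazone arrays and 3.32, 5.05, 6.26, 6.04 and 5.75 on resveratrol arrays. The groups overlapped, and each held both low and high arrays. Rosiglitazone and obese tissue differed by 0.53 (SE 0.61, limma adjusted p = 0.670), with a 95% interval of -0.74 to 1.81. Rspo3, the other R-spondin in the set, was dim in every group.

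Rspo1 followed the mesothelial markers across arrays, a relation noticed after the values were seen. Since Rspo1 was picked for it, the relation is a description with no test. Over the 20 arrays Pearson's r with the mean of the 6 markers was 0.71 and Spearman's rho was 0.802. Without lean control array 4 and obese array 2, the arrays farthest from the median on the marker axis, r was 0.885, and with deviations from group means it was 0.72. For the other 8 marker lists r lay between -0.404 and 0.396. Without each list's own 2 farthest arrays it lay between -0.148 (macrophage) and 0.539 (fibroblast and progenitor). With deviations from group means it lay between -0.496 (skeletal muscle) and 0.468 (adipocyte). Obese array 2 was the exception to the trend, with Rspo1 at 4.44 and a marker mean of 5.33, and it is the array with the urothelial markers.

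**Figure D4:**
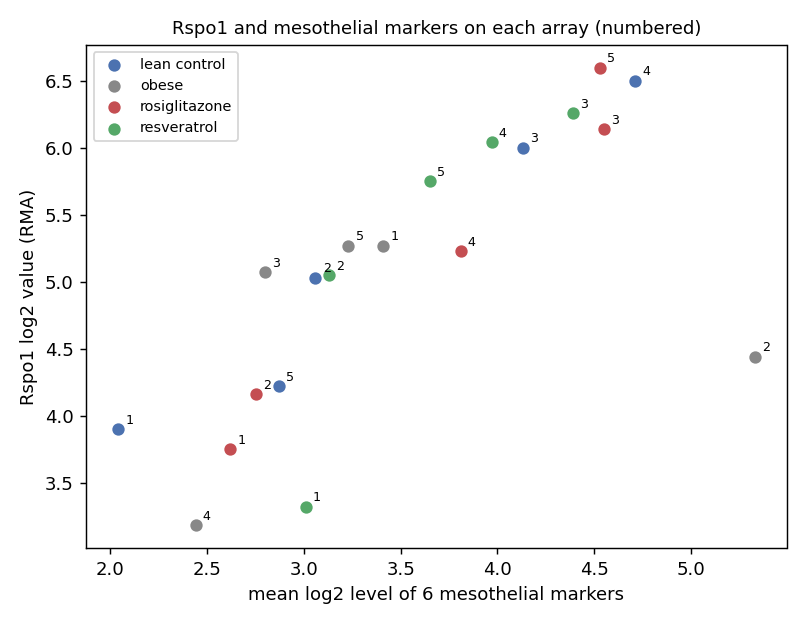
Rspo1 log2 value (vertical axis) against the mean log2 level of 6 mesothelial markers (horizontal axis) on each of the 20 arrays, coloured by group and numbered within it. Arrays with more mesothelial marker signal had more Rspo1 in all 4 groups, with obese array 2 to the right of the trend.

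Axin2, a scaffold of the complex that degrades beta-catenin and a standard readout of canonical Wnt signalling, did not pass in any comparison. Its level was 2.89, 3.72, 3.48, 3.60 and 3.75 on lean control arrays, 3.31, 3.71, 3.74, 4.44 and 3.96 on obese arrays, 3.93, 3.52, 4.36, 4.18 and 4.44 on rosiglitazone arrays and 3.89, 3.66, 3.61, 3.75 and 3.53 on resveratrol arrays. The groups overlapped, with lean control array 1 lowest. Rosiglitazone and obese tissue differed by 0.26 (SE 0.20, limma adjusted p = 0.498), with a 95% interval of -0.16 to 0.68, and rosiglitazone and lean control tissue by 0.60 (SE 0.20, adjusted p = 0.0944). Without rosiglitazone array 2 alone the latter was 0.74 (adjusted p = 0.0318). It was the same without resveratrol array 1, obese array 2 and rosiglitazone array 2 together (adjusted p = 0.0263).

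The Axin2 promoter is shown for comparison, since it holds a letter match to the TCF/LEF motif through which canonical signalling acts. It lies on the plus strand at chr10:94398535-94398834 of GRCr8 (RefSeq), with CTTTGAT in capitals and its first base 132 bases before the start.
Axin2: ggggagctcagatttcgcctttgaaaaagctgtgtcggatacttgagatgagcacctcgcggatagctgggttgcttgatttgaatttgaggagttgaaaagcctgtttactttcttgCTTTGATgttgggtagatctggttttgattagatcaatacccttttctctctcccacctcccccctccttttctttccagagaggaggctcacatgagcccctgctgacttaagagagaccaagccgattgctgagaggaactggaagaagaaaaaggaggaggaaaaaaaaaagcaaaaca
Searched on both strands (CTTTGAT or ATCAAAG), this motif was in 1 of the 28 member promoters and in 3.63% of the 33469. The GC content was 45.7% in the Axin2 promoter and 45.3% in that of Frzb, and the 28 members had a median of 65.5%, against 51.7% over all promoters.

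Across the set, differences were centred near those of all genes. The median difference was 0.02 for the 37 members and 0.01 for all genes in rosiglitazone minus obese, -0.01 and 0.02 in resveratrol minus obese and -0.04 and -0.05 in obese minus lean control. The difference was positive for 51.4%, 45.9% and 40.5% of members, against 51.5%, 52.8% and 42.4% of all genes. With 0 members past the limma threshold in obese against lean control tissue, where 0.179% of all genes passed, 2 had an unadjusted p under 0.05, Frzb and Lrp5, or 5.41% against 13.5% of all genes. In resveratrol against obese tissue, where 0.0% of genes passed, the unadjusted count was 2, Wnt1 and Wnt9a, or 5.41% against 8.83%. In resveratrol against lean control tissue 0 members and 0.124% of genes passed, and 6 members, 16.2%, had an unadjusted p under 0.05, against 13.8% of all genes.

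The moderated F test over the 4 groups called 5 members, Frzb, Sfrp1, Lrp5, Fzd2 and Wnt5b, or 13.5% of the set against 8.83% of all genes. With each array left out in turn, Wnt5b lost this call in 13 of 20 cases (adjusted p up to 0.0971) and kept it without lean control array 1 or 3, obese array 2, 4 or 5, rosiglitazone array 4 or resveratrol array 1. Lrp5 lost it in 5 cases (adjusted p up to 0.0853), without lean control array 1, 2 or 4 or rosiglitazone array 2 or 3. Fzd2 lost it in 4 (up to 0.110), without lean control array 2 or rosiglitazone array 3, 4 or 5, and Sfrp1 in 1 (0.0503), without rosiglitazone array 3. Lrp5 also lost it with each array centred (0.0558) or all features tested (0.0556), Fzd2 with all features tested (0.0619), and Wnt5b with all features tested (0.0690) or without the 3 arrays that stood apart (0.0696). Rosiglitazone against lean control tissue also called 5 members, 13.5% against 5.19% of all genes. The 3 higher members were 8.11% of the set against 2.63% of all genes, and the 2 lower ones 5.41% against 2.56%. Higher genes were 50.7% of all called genes there, and 61.4% with each array centred. Groups did not overlap for Fzd2 on the higher side, where this held for 2.36% of all genes, and for Frzb and Lrp5 on the lower side, where it held for 3.11%. That comparison shares its arrays with the others and was added once the F test had called Frzb and Lrp5, so its count is a description. Fzd2 was higher there by 1.06 (SE 0.28, limma adjusted p = 0.0255), with an adjusted p of 0.0619 to 0.0741 without lean control array 2 or 5 or rosiglitazone array 3, 4 or 5.

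Of 55 further genes of the pathway, such as its intracellular relays, ligand processing genes and targets, 41 were measured. In rosiglitazone against obese tissue 3 rose and 0 fell, or 7.32% called, against 9.86% of all genes called and 7.19% higher, so this share was not above the background. Ccn5, a matricellular protein also known as Wisp2 and a Wnt target, stood at 4.43, 3.37, 3.82, 3.96 and 3.97 on obese arrays and at 6.07, 4.27, 6.86, 6.57 and 6.96 on rosiglitazone arrays. Rosiglitazone array 2 was the sole one within the obese range. Ccn5 rose by 2.24 (SE 0.47, limma adjusted p = 0.00416). Gsk3a, a kinase that marks beta-catenin for breakdown, rose by 0.59 (SE 0.16, adjusted p = 0.0243), and Lgr4, a receptor of R-spondins, by 0.51 (SE 0.15, adjusted p = 0.0293).

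In rosiglitazone against resveratrol tissue 2 of the 41 genes were higher and 1 was lower, or 7.32% called, near the 6.9% of all genes. The higher ones were Ccn5 (1.74, SE 0.47, limma adjusted p = 0.0286) and Gsk3a (0.55, SE 0.16, adjusted p = 0.0432). Wls, the carrier that brings Wnt ligands to the cell surface, was lower by 0.42 log2 units (SE 0.12, adjusted p = 0.0367). Its rosiglitazone arrays read 6.58, 6.31, 6.60, 6.33 and 6.72 and its resveratrol arrays 6.71, 6.92, 7.05, 7.02 and 6.97, with rosiglitazone array 5 just above the lowest resveratrol array. Against lean control tissue, rosiglitazone tissue had more Ccn5 (2.50, adjusted p = 0.00275) and less Apc, a scaffold that promotes beta-catenin breakdown, less Gpc4, a glypican, and less Wls, or 9.76% of the 41 genes called against 5.19% of all genes. None of the 41 passed in obese against lean control, resveratrol against obese or resveratrol against lean control tissue. In these comparisons 0.179%, 0.0% and 0.124% of all genes passed.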

How the data were processed

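Total RNA, 100 ng per sample, was labelled and put on whole-transcript Affymetrix rat arrays, per the labels' protocols. The deposited table holds log2 values made with RMA (background correction, quantile normalisation and probe summary), per the submitters' processing notes, which name no version. That the scale is log2 was taken from the method and the range of values, with no check against scanner files.

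Of 36685 features, 14824 had 1 gene symbol, 829 had several and 21032 were not listed in the platform's gene table. For each gene the feature with the highest mean was kept, leaving 14557 genes. The test was limma (version 3.58.1, R 4.3.3) on the group means of 20 arrays (16 residual and 5.41 prior degrees of freedom), two-sided, with Benjamini-Hochberg adjustment over all genes of a comparison and 0.05 as the threshold. It was tried on simulated data. Members past the threshold in at least 1 comparison are given array by array, with others by means, ranges or counts. Wnt5a, Axin2, Rspo1 and Sfrp2 are given by array although no planned comparison called them, a choice made after their values were seen. Dkk3, also given by array, was called only in rosiglitazone against lean control, an added comparison. Of the further pathway genes, at most 4 per comparison and direction, by p, are named.

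The members, the gene and marker lists and the 3 arrays left out together were chosen with earlier results of these data known. Rosiglitazone and resveratrol against lean control were added after the values were seen. Alternatives were a second quantile normalisation, centring each array, leaving out genes whose mean over the 20 arrays was under the median gene, averaging features, testing all features, eBayes with trend and robust settings, weighting arrays, fitting only the groups compared, blocking on replicate number, leaving out the 3 arrays, and leaving out each array in turn.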

Additional observations from a re-analysis of the deposited data

Results flagged for a closer look

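In groups of 5 arrays, an array was marked where its gap to the nearest other array exceeded 0.71 of the group's range (Dixon's 95% value). This marked 13 of 148 gene and group combinations, where chance marks about 5%. The share over all genes was not computed, so the count cannot be set against that of other genes. No explanation was tested. Resveratrol array 1 was marked for Dkk2 (2.21, others 3.93 to 4.40), Fzd4 (6.66, others 8.23 to 8.37) and Wnt2 (4.40, others 1.42 to 2.03), and its skeletal muscle marker mean was 8.98. Rosiglitazone array 2, with Ucp1 at 10.52, was marked for Dkk2 (2.05, others 3.38 to 3.72) and Wnt5b (3.14, others 2.43 to 2.63). Other resveratrol arrays were marked for Fzd6 (array 4 at 5.18, others 4.50 to 4.63), Wnt4 (array 2 at 2.06, others 2.75 to 3.01) and Wnt5a (array 5 at 2.69, others 3.24 to 3.32). Obese array 4 had Fzd7 at 4.50, with the others at 3.49 to 3.76. Among lean control arrays, array 4 was marked for Dkk1 (2.04, others 1.44 to 1.60) and Wnt9b (2.48, others 1.82 to 2.0), array 2 for Wnt10a (1.45, others 1.83 to 1.90) and array 3 for Wnt2 (1.93, others 2.31 to 2.45).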

How the results depend on the processing

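Of 222 member differences, the 50 with an unadjusted p under 0.1 were recomputed, 1475 values in all, and 0 changed direction, 26 that had passed no longer did and 21 came to pass. The count of members called in rosiglitazone minus obese was 2, and 4 with each array centred (Dkk3 and Wnt5b added). In rosiglitazone minus resveratrol it was 2, but 1 with all features tested and 0 when genes with a mean over the 20 arrays under the median gene were left out, since both called genes are among them. The F test called 5, and 2 with all features tested. Resveratrol minus lean control called 0, and 1 with array weights (Frzb). With single arrays left out, the counts ran from 0 to 3 in rosiglitazone minus obese (0 without rosiglitazone array 3; 1 without rosiglitazone array 4 or 5 or obese array 2), from 1 to 3 in rosiglitazone minus resveratrol, from 1 to 6 in the F test (1 without rosiglitazone array 3, 2 without lean control array 2, 3 without lean control array 4 or rosiglitazone array 5), from 3 to 6 in rosiglitazone minus lean control (3 without lean control array 2, rosiglitazone array 3 or rosiglitazone array 5), and from 0 to 1 in obese or resveratrol minus lean control (Frzb); resveratrol minus obese called 0 in all. Over all genes, obese minus lean control called 26 (0 to 65 over all alternatives) and resveratrol minus lean control 18 (0 to 398). The cause was not tested. Deviations from group means had a median r of 0.03 between same-numbered arrays of different groups, against -0.008 between arrays of other numbers. Of the 30 same-numbered pairs 5 had r over 0.1, the highest at 0.36. Of 20 arrays, 6 correlated best with their own number. With the replicate number as a block, 2 members were called in rosiglitazone minus obese, 2 in rosiglitazone minus resveratrol and 4 in the F test, which gained Dkk3 (adjusted p = 0.0417) and lost Fzd2 (0.0572) and Wnt5b (0.0825).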
